A study of Mus musculus with 182 samples.

Results

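Iron storage, iron uptake and iron sensing were examined through 6 genes in single germinal centre B cells of the mouse spleen: Fth1 and Ftl1 (storage), Tfrc and Slc11a2 (uptake), and Ireb2 and Aco1 (sensing). These are 6 of the 17034 gene symbols in the deposited table, taken by symbol, and all 6 were present and were followed in all 182 cells. They were selected on their roles after deposited values of the same table, their own included, had been seen, so their levels are given as a description and without a test. The cells came from C57BL/6 mice immunised intraperitoneally with 100 μg of the hapten-carrier conjugate NP(23)-KLH in 50% alum with 1 μg of LPS, and were taken on day 13. They were sorted as B220+, Fas-high and GL7-high after magnetic depletion of T cells, CD11c+ cells and IgD+ cells, and the sample labels add NP binding to this phenotype. Each cell was captured on a Fluidigm C1 chip and gave 1 library. No untreated, non-germinal-centre or other comparison group was included, and the labels name no animal, so the 182 cells were treated as 1 biological sample in which no test between conditions is possible.

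Iron is taken up as transferrin-bound iron through the transferrin receptor Tfrc, is carried out of endosomes by the divalent metal transporter Slc11a2, and is stored in ferritin, a shell built from heavy chains (Fth1, which oxidises iron) and light chains (Ftl1, which helps the iron core to form). The balance is set largely after transcription. The iron regulatory proteins, encoded by Aco1 and Ireb2, bind a hairpin called the iron-responsive element when iron is scarce. Bound near the start of the ferritin mRNAs they block translation, and bound in the tail of Tfrc mRNA they protect that mRNA from decay. When iron is plentiful, the Aco1 protein takes up an iron-sulphur cluster and acts as a cytosolic aconitase, and the Ireb2 protein is degraded through Fbxl5. Dividing lymphocytes need iron for ribonucleotide reductase, DNA polymerases and the respiratory chain. The values below are mRNA levels, which for ferritin do not report the protein.

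The 3 mRNAs in which the searched form of the element was found are shown by their elements, since such sequences tie storage to uptake. The GENCODE M21 transcripts (GRCm38, the mm10 build) were searched on the transcript strand for the letters CNNNNNCAGTGNNNNNN in which the 5 bases on either side of the 6-base loop can pair, with G and T allowed as a pair. Each sequence is given 5′ to 3′ with 6 bases before and 6 after, and capitals mark the bulged C and the loop.
Fth1 5′ UTR, chr19:9982732-9982760, plus strand: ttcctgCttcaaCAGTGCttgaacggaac
Ftl1 5′ UTR, chr7:45459779-45459807, minus strand: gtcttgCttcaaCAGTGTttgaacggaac
Tfrc 3′ UTR, chr16:32631219-32631247, plus strand: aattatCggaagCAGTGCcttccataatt
Tfrc 3′ UTR, chr16:32631598-32631626, plus strand: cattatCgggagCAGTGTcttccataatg
Tfrc 3′ UTR, chr16:32631663-32631691, plus strand: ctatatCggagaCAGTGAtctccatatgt
Tfrc 3′ UTR, chr16:32631710-32631738, plus strand: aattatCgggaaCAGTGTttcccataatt

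These letters occurred once in the 5′ UTR of each ferritin gene and 4 times in the 3′ UTR of Tfrc, all 4 in exon 19 of its 19 exons. Among all annotated genes they occurred in the 5′ UTR of 20 of 20250 genes (0.0988%) and in the 3′ UTR of 118 of 20915 (0.564%). The transcripts searched for Slc11a2, Ireb2 and Aco1 did not hold them. The search required all 5 stem bases to pair and allowed no extra unpaired base, so elements of another form would be missed. The absence of a match is therefore not evidence that an mRNA lacks an element, and the 4 matches in Tfrc need not be all of its elements. A match is a description of the letters and not evidence of binding. In the same annotation Fth1 spans chr19:9980598-9985098, Ftl1 chr7:45457944-45459884, Tfrc chr16:32608920-32632794, Slc11a2 chr15:100387898-100425072, Ireb2 chr9:54863789-54912530 and Aco1 chr4:40143081-40198338.

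The deposited values are a normalized signal on a linear scale whose unit is not given in the sources used here, so the sequencing depth of a cell is unknown and levels are not compared between genes. The columns fell into 2 sets by their values, cells 1 to 96 (set 1, 96 cells) and cells 97 to 182 (set 2, 86 cells). In each set a gene has its own lowest value, here called its floor, which its low cells share. A cell had between 980 and 5149 genes above their floor (median 2404), and between 995 and 1946 genes at 1 or more. Genes at 1 or more numbered 1873 to 1946 in set 1 (median 1904), and in set 2 at most 1741 (median 1690). Some exact values recurred in several cells of a set, such as 3194.29 for Fth1 in cells 42, 48 and 80. How far the normalization sets the shares and levels was not tested, so differences between the sets are not read as a result. Whether the sets are chips, runs or animals is not known, so each relation is given within both. Detection of a gene in a cell means a value of 1 or more, and intervals on shares of cells are exact Clopper-Pearson 95% intervals that cover counting error over cells only. Germinal centre B cell markers were present throughout: 181 of the 182 cells had at least 2 of 10.

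Both ferritin chains were detected in most cells, while the uptake and sensing genes were each detected in fewer than 1 cell in 5. Of the 182 cells, 143 had Fth1 (78.6%, interval 71.9 to 84.3%) and 116 had Ftl1 (63.7%, interval 56.3 to 70.7%). The sensor Ireb2 followed with 29 cells (15.9%, interval 10.9 to 22.1%), then Tfrc with 21 (11.5%, interval 7.29 to 17.1%), Slc11a2 with 12 (6.59%, interval 3.45 to 11.2%) and Aco1 with 9 (4.95%, interval 2.29 to 9.18%). The intervals of Fth1 and Ftl1 do not overlap each other or those of the other 4 genes. Those of Ireb2, Tfrc and Slc11a2 overlap, as do those of Tfrc, Slc11a2 and Aco1, so no order is given among neighbours in that range. The threshold of 1 stands at an unknown depth and the genes differ in transcript length (968 bases for Ftl1, 1494 for Fth1, and between 3832 and 5770 for the other 4, by the longest coding transcript), and how far this sets the shares was not tested. The order depends on the threshold for the low genes. At a value of at least 5, Tfrc and Ireb2 were both detected in 8.24% of cells. Above the floor, Ireb2 was detected in 30.2%, Tfrc in 28.6%, Slc11a2 in 17.0% and Aco1 in 8.24%.

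**Figure D1:**
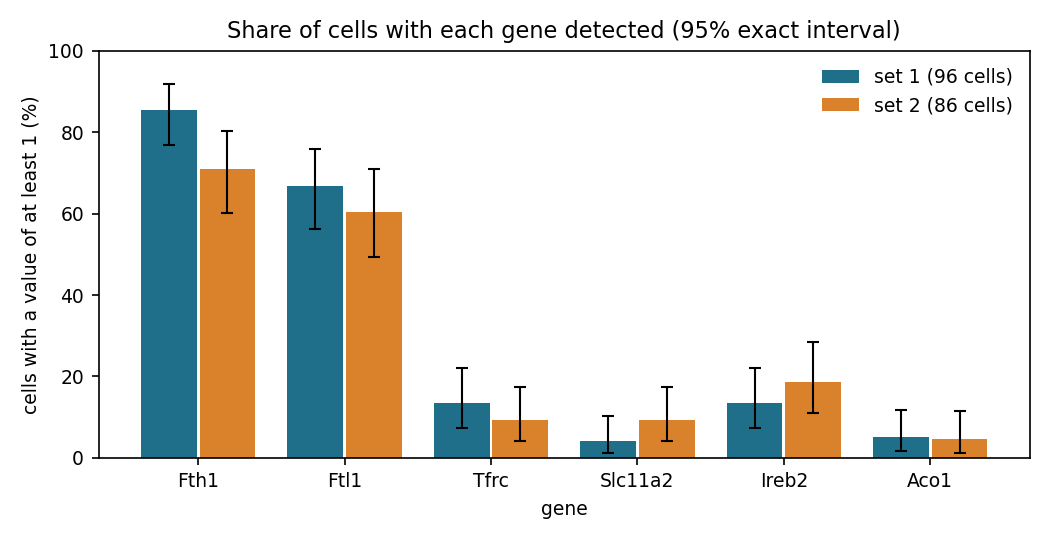
Share of cells with a value of at least 1 for each gene (y axis, percent of the cells of a set), in set 1 (96 cells) and set 2 (86 cells), with exact 95% intervals as error bars. The bars of Fth1 stand at 85.4% and 70.9% and those of Ftl1 at 66.7% and 60.5%, while no bar of the other 4 genes passes 18.6%.

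Fth1, the heavy chain, ranged over the cells from 0 to 6108, with a median of 49.5 (153 in set 1 and 33.4 in set 2). Its values were spread over the whole scale: 39 cells were below 1, 23 lay from 1 to 10, 35 from 10 to 100, 40 from 100 to 1000 and 45 at 1000 or more. In set 1, 82 of 96 cells had Fth1 (85.4%, interval 76.7 to 91.8%), and in set 2, 61 of 86 had it (70.9%, interval 60.1 to 80.2%). The highest values were 6108 in cell 166 and 4938 in both cell 148 and cell 173, all in set 2. Both sets thus held cells without Fth1 signal and cells with values of 1000 or more.

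Ftl1, the light chain, ranged from 0 to 4532 with a median of 9.26 (9.52 in set 1 and 7.87 in set 2). It was below 1 in 66 cells and between 1 and 10 in 28, and it lay from 10 to 100 in 36 cells, from 100 to 1000 in 44 and at 1000 or more in 8. Its highest values, all in set 1, were 4532 in cell 82, 3114 in cell 32 and 2221 in cell 28. Of the 894 stretches of 75 bases in the Ftl1 transcript, 758 (84.8%) also occur in other annotated genes, among them the ferritin light chain pseudogenes Ftl1-ps1, Ftl1-ps2 and Ftl2-ps, so the Ftl1 values are uncertain by whatever share of reads the authors' counting gave to those copies. The same comparison found 33 of 1420 stretches (2.32%) for Fth1 and 0 for the other 4 genes.

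Tfrc, the receptor for transferrin, stood below 1 in 161 cells, between 1 and 10 in 9, between 10 and 100 in 11 and above 100 in 1. Its median over all cells was 0.00890, near its floor, and its median among the 21 cells in which it was detected was 13.7. Cell 165 held its highest value, 395, which is 46.0% of the summed Tfrc values of all cells, and the next cells had 88.2 (cell 152) and 69.4 (cell 18). Tfrc was detected in 13 cells of set 1 and in 8 of set 2. The second uptake gene, Slc11a2, had a median of 5.39 among its 12 detected cells. Its highest value was 1694 in cell 24, which is 80.1% of its sum, followed by 181 in cell 129 and 152 in cell 99. It was detected in 4 cells of set 1 and in 8 of set 2, so that in both uptake genes a single cell carried a large part of all signal.

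Ireb2, which encodes the iron regulatory protein that is controlled by degradation, had a median of 6.51 in its 29 detected cells and a highest value of 235 in cell 71. The next highest Ireb2 values were 156 in cell 25 and 135 in cell 142, and it was detected in 13 cells of set 1 and 16 of set 2. Aco1, which encodes the regulatory protein that doubles as an aconitase, had 381 in cell 18 and 371 in cell 170. The next highest Aco1 value was 27.9 in cell 22, and the other 6 detected cells lay between 1.04 and 6.88. Aco1 was detected in 5 cells of set 1 and 4 of set 2.

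**Figure D2:**
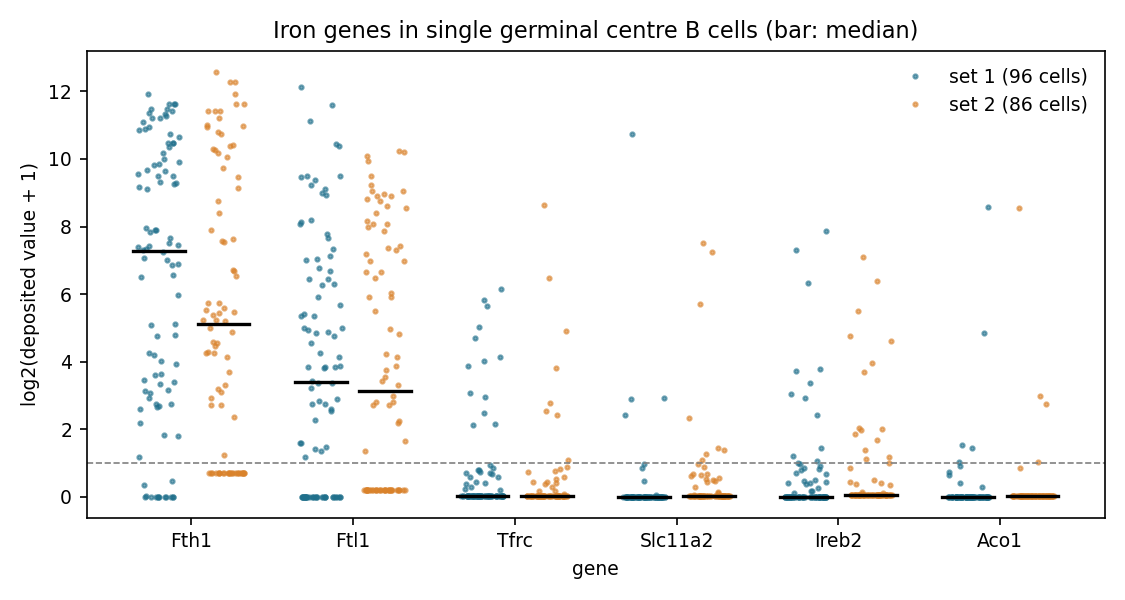
Values of the 6 iron genes in every cell, as log2(deposited value + 1) on the y axis, with set 1 left and set 2 right for each gene. Points are cells, black bars are medians, and the dashed line marks the detection threshold of 1; Fth1 and Ftl1 fill the scale in both sets, and the other 4 genes rise above the line in 9 to 29 cells each.

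Most cells had no more than 2 of the 6 genes, 4 of which were each detected in fewer than 1 cell in 5. No gene of the 6 was detected in 16 cells, 1 gene in 45, 2 genes in 85, 3 genes in 29 and 4 genes in 7, and no cell had 5 or 6. The 16 cells with none were 4 in set 1 and 12 in set 2. Of the 21 cells with Tfrc, 18 also had Fth1 and 16 had Ftl1, where independent detection would give 16.5 and 13.4. Tfrc and Slc11a2, which act in turn on the same route, were never detected in the same cell, where independent detection would give 1.38 cells. The sensors Ireb2 and Aco1 were detected together in 1 cell, against 1.43 under independence, and Tfrc and Ireb2 together in 5, against 3.35. With so few cells expected, 0 shared cells is within counting error.

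Cells with more Fth1 mRNA tended to have more Ftl1 mRNA. Both were detected in 100 cells (54.9%, interval 47.4 to 62.3%), Fth1 alone in 43, Ftl1 alone in 16 and neither in 23. Independent detection would give 91.1 cells with both. In set 1 there were 55 such cells against 54.7 under independence, and in set 2 there were 45 against 36.9. Of the 23 cells with neither, 5 were in set 1 and 18 in set 2. Spearman's rho of Fth1 with Ftl1 was 0.40 over all cells, 0.38 in set 1 and 0.48 in set 2, and 0.36 after the number of genes above their floor and the set were taken into account. Among the 100 cells with both, it was 0.36 (0.24 in set 1 and 0.48 in set 2). The ratio of the chains was not fixed: log2(Fth1/Ftl1) had a middle range over these cells from -0.43 to 4.39 around a median of 1.93. The ratio is given for its spread over cells and not as a comparison of the levels of the chains. The part of transcript length and of the stretches Ftl1 shares with other genes in that spread was not tested. The cells share their normalization and their source, and no p-value is given for any relation across them.

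**Figure D3:**
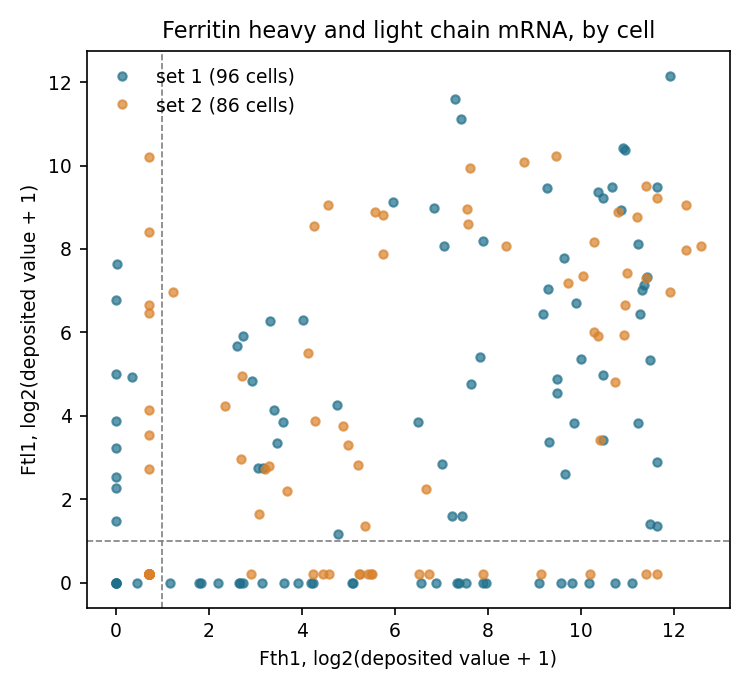
Ftl1 (y axis) against Fth1 (x axis) in each of the 182 cells, both as log2(deposited value + 1), coloured by set, with dashed lines at the detection threshold. The upper right field holds the 100 cells with both chains, in which rho was 0.36, and points along the lower edge are the 43 cells with Fth1 alone.

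No other pair of the 6 genes kept a relation of 0.2 or more within the sets. Over all cells, Slc11a2 and Aco1 had a rho of 0.58, but within the sets it was -0.10 and -0.027. Ireb2 and Aco1 had 0.39 over all cells, against 0.12 in set 1 and -0.075 in set 2. For Tfrc and Slc11a2 the pooled value was 0.24 and the within-set values were -0.15 and -0.17, and for Tfrc and Aco1 the pooled 0.31 stood beside -0.0034 and -0.0087. Tfrc and Ireb2 had 0.25 over all cells, 0.11 in set 1 and 0.092 in set 2. These genes stand at their floor in most cells and the floor differs between sets, and the part of the floor in the pooled values was not tested beyond the within-set values. The relation of Tfrc to the storage genes was 0.11 and 0.19 for Fth1 and 0.073 and 0.13 for Ftl1 in sets 1 and 2. Ireb2 had 0.057 and 0.028 with Fth1 and 0.12 and 0.14 with Ftl1. Ferritin mRNA and the mRNAs for uptake and sensing thus showed no within-set relation above 0.19 in size.

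**Figure D4:**
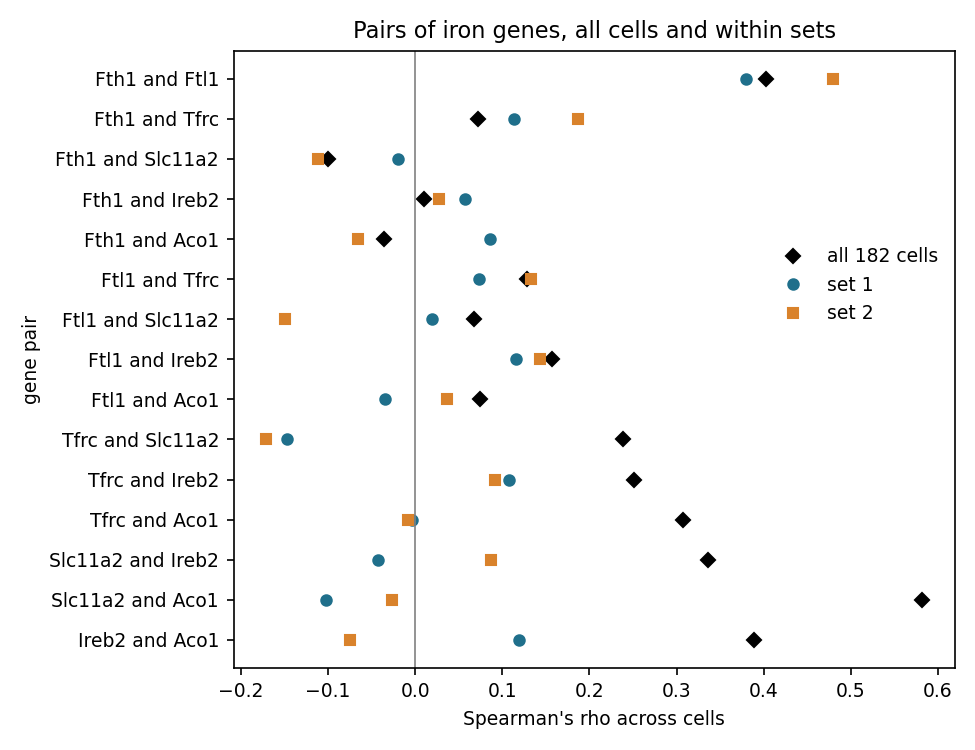
Spearman's rho (x axis) for each of the 15 pairs of the 6 genes (y axis), over all 182 cells (diamonds), in set 1 (circles) and in set 2 (squares). Only Fth1 with Ftl1 lies to the right of 0.2 in both sets; for Slc11a2 with Aco1 the pooled value is 0.58 and both within-set values are below 0.

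Genes of oxidative phosphorylation, a major user of iron-sulphur clusters and haem, tended to be higher in cells with more ferritin mRNA. A score was the mean over the genes of a list of the standardised log2(value + 1), using genes detected in at least 10% of cells. The storage score (Fth1 and Ftl1) had a rho of 0.50 with the oxidative phosphorylation score over all cells, with 0.48 in set 1 and 0.50 in set 2. With the number of genes above their floor and the set taken into account it was 0.38. Tfrc had -0.063 with the same score (-0.016 and 0.15 in sets 1 and 2) and Ireb2 had -0.070 (-0.019 and 0.13).

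By single genes, a relation was called where rho was at least 0.2 in size with the same sign in both sets, among genes detected in at least 20% of cells. Of 64 oxidative phosphorylation genes that passed that filter, out of 77, 19 were called positive with Fth1 (29.7%), against 7.61% of the 2890 genes tested. None was called negative, and 63 of the 64 had a mean within-set rho above 0. The median mean rho of the list with Fth1 was 0.20, against 0.045 over all genes. With Ftl1, 16 of the 64 were called positive (25.0%), against 6.54% of all genes, and the list median was 0.16 against 0.036. The genes called with Fth1 encode subunits of complexes I, III and IV and of the ATP synthase. Uqcrb of complex III had 0.32 and 0.46 with Fth1 in sets 1 and 2. Among ATP synthase genes, Atp5e had 0.44 and 0.33 and Atp5f1 0.30 and 0.40. Cox6a1 of complex IV had 0.26 and 0.43 with Fth1, and with Ftl1 it had 0.35 and 0.31. Cox5a, also of complex IV, had 0.34 and 0.41 with Ftl1. The 19 genes called with Fth1 and the 16 called with Ftl1 shared 12 (63.2% and 75.0% of the lists). Over all genes tested, the members left out, 107 were shared of 219 called positive with Fth1 (48.9%) and 188 with Ftl1 (56.9%), in the same cells.

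The subunits that themselves carry iron form a list of their own. Of 10 genes for iron-sulphur or haem subunits of the respiratory chain and citric acid cycle that passed the filter, 0 were called with Fth1, against 7.61% of all genes, and 1 with Ftl1 (10.0%), against 6.54%. That gene was Sdhb, the iron-sulphur subunit of succinate dehydrogenase, at 0.23 and 0.28. The mean rho was above 0 for 9 of the 10 with Fth1 and for 8 with Ftl1, and the list median was 0.14 with either, against 0.045 and 0.036 over all genes.

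Transcript length and the number of genes above their floor moved with these relations. Across 2736 genes with an annotated length, the rho between the length of the longest coding transcript and the relation to Fth1 was -0.43, and for Ftl1 it was -0.44. Genes called positive with Fth1 had a median length of 1488 bases and those called negative 4550, against 2989.5 for all genes tested. The median was 913 bases for the oxidative phosphorylation genes. Among genes of at most 1500 bases, 34.0% of the 47 oxidative phosphorylation genes were called positive with Fth1, against 21.6% of 482 genes in all. With Ftl1 the shares were 29.8% and 18.7%. Among genes over 1500 and up to 3000 bases, 12.5% of 16 oxidative phosphorylation genes were called with Fth1, against 7.09% of 889 genes, and with Ftl1 the shares were 6.25% and 6.52%. The rho of Fth1 with the number of genes above their floor was 0.19 in set 1 and 0.43 in set 2, and that of Ftl1 was 0.28 and 0.33. Given that number, the genes called positive with Fth1 were 107 in all (3.7%), 6 of them from oxidative phosphorylation. The part of length in the result was not tested beyond these values.

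**Figure D5:**
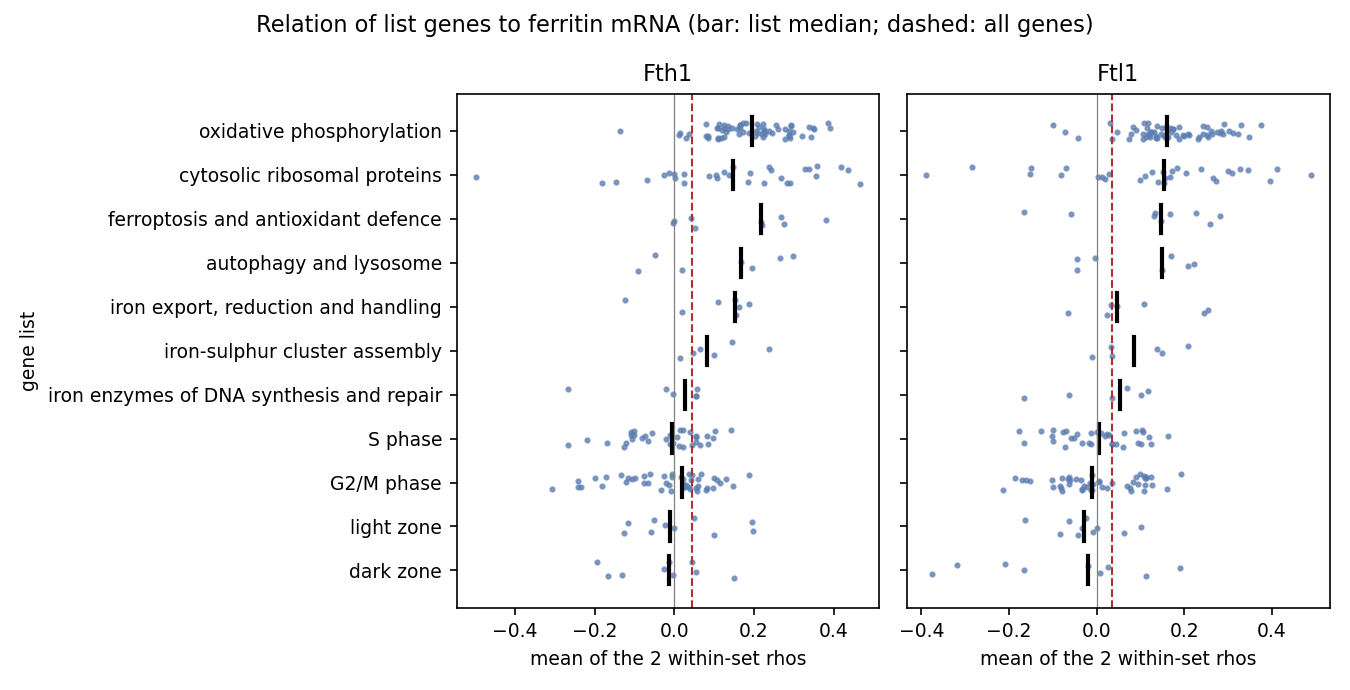
Mean of the within-set rhos with Fth1 (left) and Ftl1 (right) on the x axis for each gene of 11 lists on the y axis that passed the detection filter. Points are genes, black bars are list medians and the dashed line is the median over all genes tested (0.045 for Fth1 and 0.036 for Ftl1); the oxidative phosphorylation bars stand at 0.20 and 0.16 and those of S phase and G2/M phase near 0.

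Division genes had the opposite sign when taken as a score. The storage score had a rho of -0.26 with the S phase score over all cells (-0.35 in set 1 and -0.17 in set 2) and of -0.14 with the G2/M score (-0.19 and -0.078). With genes above their floor and set taken into account these became -0.35 and -0.29. Gene by gene the lists did not move as a whole: the median mean rho with Fth1 was -0.0062 over 34 S phase genes, of which 16 were above 0, and 0.020 over 48 G2/M genes. The called genes were 4. Mki67, the proliferation marker, had -0.32 and -0.30 with Fth1, Top2a, which untangles DNA, had -0.24 and -0.25, and the chromatin protein Hmgb2 had -0.28 and -0.20. Pola1, the catalytic subunit of the polymerase that primes DNA replication, had -0.23 and -0.30. Negative calls with Fth1 thus came to 1 of 34 for S phase (2.94%) and 3 of 48 for G2/M (6.25%), against 1.52% of all genes. None of either list was called with Ftl1 at either sign. S phase and G2/M genes had median lengths of 3314.5 and 3366 bases.

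Tfrc showed no relation of 0.2 or more in size with the division scores. It stood below 1 in 161 of the 182 cells, so these values cannot tell an absent relation from one hidden by low signal. Its rho was -0.063 with the S phase score and -0.083 with the G2/M score over all cells, with -0.041 and -0.014 for S phase and -0.13 and 0.074 for G2/M in sets 1 and 2. Of the 21 cells with Tfrc, 16 had Mki67 (76.2%, interval 52.8 to 91.8%), against 83.5% of all cells. Rrm2, the iron-carrying subunit of ribonucleotide reductase, was detected in 8 of the 21 (38.1%, interval 18.1 to 61.6%), against 52.2% of all cells. Myc, a transcription factor known to raise Tfrc in other settings, was detected in 2 of the 21 (9.52%), against 18.7% of all cells. Each of these intervals that is given holds the share among all cells. Ireb2 had -0.15 with the S phase score and -0.054 with the G2/M score, and Aco1 was detected in 9 cells that all also had Mki67 and Top2a, which most cells had.

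The other genes that handle iron ranged from 0 to 125 cells. Of 29 measured genes of iron export, reduction and handling, 7 were detected in at least 20% of cells, and the median share was 6.04%. Pcbp2, a chaperone that delivers iron to ferritin, was detected in 125 cells (68.7%) and its relative Pcbp1 in 80 (44.0%). Glrx3, which carries iron-sulphur clusters in the cytosol, was found in 87 cells. The mitochondrial iron importers Slc25a37 and Slc25a28 were found in 35 and 34 cells. Fbxl5, which marks the Ireb2 protein for degradation, was detected in 33 cells (18.1%), 11 in set 1 and 22 in set 2, and together with Ireb2 in 3. Ncoa4, the receptor that sends ferritin to the lysosome, was detected in 6 cells, and Steap3, the ferrireductase of the transferrin route, in 4. Hmox1, the inducible haem oxygenase, was detected in 1 cell, against 43 for the constitutive Hmox2. Of the 7 genes of this list that passed the filter, 0 were called with Fth1. With Ftl1, 2 of the 7 (28.6%) were called positive, against 6.54% of all genes: Hmox2 at 0.27 and 0.22 and the biliverdin reductase Blvrb, which acts after it in haem breakdown, at 0.24 and 0.27. With values below 1 tied 1 was called, and by partial rho 0.

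Detection of the genes that use iron varied widely within each list. Among 22 iron enzymes of DNA synthesis and repair the median share of cells was 11.3%, and the most often detected were Rrm2, which was found in 95 cells, Pola1 in 86, Pold1 in 83 and Rrm1, the partner of Rrm2, in 80. The oxygen-sensing prolyl hydroxylase Egln2 was found in 111. The median share was 11.5% over its list of 26 iron enzymes of chromatin and oxygen sensing. In iron-sulphur cluster assembly, with a median of 9.34% over 28 genes, Lyrm4 was found in 62 cells and the chaperone Hspa9 in 51, while the scaffold Iscu and the cysteine desulphurase Nfs1 were found in 8 each. In haem synthesis, with a median of 6.59% over 14 genes, Tmem14c was found in 61 cells, while Alas1, which starts the pathway, was found in 2 and Fech, which inserts the iron, in 7. The storage score had a rho of 0.24 with the iron-sulphur assembly score (0.25 and 0.23 in the sets) and of -0.023 with the haem synthesis score.

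The storage score had a rho of 0.37 with the ferroptosis and antioxidant score (0.36 and 0.38) and of 0.33 with the autophagy and lysosome score (0.35 and 0.31). These lists hold peroxide and superoxide scavengers and the machinery that returns ferritin iron through the lysosome. Of 9 antioxidant genes that passed the filter, 4 (44.4%) were called positive with Fth1 and 2 (22.2%) with Ftl1, against the 7.61% and 6.54% of all genes. The peroxiredoxin Prdx2, which breaks down hydrogen peroxide, had 0.28 and 0.48 with Fth1 and 0.29 and 0.24 with Ftl1. Prdx1 had 0.21 and 0.34 with Fth1, catalase (Cat) 0.24 and 0.30, and the superoxide dismutase Sod1 0.22 and 0.21. Given the number of genes above their floor, 1 of the 9 was called with Fth1, against 3.7% of all genes, and 0 with Ftl1. Gpx4, the enzyme that guards against ferroptosis, was detected in 31 cells (17.0%) and did not reach the filter, and the cystine transporter Slc7a11 was detected in 0 of 182, for which the interval reaches 2.01%. Of 7 autophagy and lysosome genes, Gabarap, which attaches cargo to autophagosomes, at 0.21 and 0.39, and Ctss, a lysosomal protease, at 0.30 and 0.23, were called with Fth1 (28.6%) and 0 with Ftl1. With values below 1 tied, 0 of the 7 were called with Fth1.

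The genes most like Fth1 by the weaker of their within-set values included Actb (0.52 and 0.53), Pfn1 (0.46 and 0.52), Rps7 (0.43 and 0.45) and Tmsb4x (0.45 and 0.42). They encode actin, actin-binding proteins and a ribosomal protein. Those least like it were Lars2, a mitochondrial tRNA synthetase (-0.55 and -0.56), the ribosomal protein Rpsa (-0.48 and -0.52) and the splicing cofactor Son (-0.35 and -0.47). For Ftl1 the closest were Rps7, Tmsb4x, Rpl7, Actb and Fth1 itself (0.38 and 0.48), and the farthest Son, Lars2 and Arhgef12. Rps7 was detected in only 41 cells (22.5%), so its relations to both ferritin genes rest largely on ranks of values below 1. With Ftl1 its rho over all cells was 0.32, against 0.51 and 0.47 within the sets. Of 31 ribosomal protein genes, 11 were called positive with Fth1 (35.5%) and 10 with Ftl1 (32.3%), against 7.61% and 6.54% of all genes. Among genes of at most 1500 bases, 32.0% of 25 ribosomal protein genes were called with either, against 21.6% and 18.7% of all such genes. Negative calls were 1 of the 31 with Fth1 (3.23%) and 2 with Ftl1 (6.45%), against 1.52% and 1.87% of all genes. Rpsa was called negative with both. Of 9 genes of Myc and ribosome biogenesis, 2 (22.2%) were called negative with Fth1, against 1.52% of all genes. These were the nucleolar genes Ncl (-0.39 and -0.29) and Nolc1 (-0.26 and -0.22). Of 10 germinal centre B cell genes, 1 (10.0%) was called positive and 1 negative with each ferritin gene. The positive call was the B cell receptor component Cd79a with Fth1 (0.37 and 0.39) and with Ftl1 (0.38 and 0.25). Of 9 dark zone genes, 0 were called with Fth1. With Ftl1, 2 of the 9 (22.2%) were called negative, against 1.87% of all genes tested, among them Mybl1 (-0.53 and -0.22). No light zone gene was called with either.

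The 4 sparse genes had almost no genes like them. Tfrc had 6 called positive (0.208%) and 2 negative (0.0692%) of 2891 genes, Slc11a2 had 9 (0.311%) and 6 (0.208%), Ireb2 had 6 (0.208%) and 2 (0.0692%), and Aco1 had 6 (0.208%) and 0. The highest weaker values were 0.22 for Tfrc with Rps6ka1, 0.26 for Slc11a2 with Rbmx, 0.29 for Ireb2 with Marf1 and 0.28 for Aco1 with Snrpa. Relations of this size among genes at their floor in most cells are not read as a result.

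Markers of other cell types were examined because macrophages hold much ferritin. Of 11 myeloid marker genes 9 were in the table. Their summed level ranged from 0.195 to 7675 over cells with a median of 0.208, and at least 1 was detected in 56 cells and at least 2 in 13. The iron-recycling macrophage list (5 of 6 genes measured) was summed at 0.0366 to 65.4, with Cd163 at 0 detected cells, Hmox1 in 1 and no cell with 2 of its genes. Erythroid genes were detected in 9 cells. Of the 6 measured T cell genes at least 1 was detected in 106 cells and at least 2 in 10, with a summed level from 0.0347 to 3565. Lck was detected in 99 cells, while Cd3d and Cd4 were detected in none. The highest Ftl1 value was in cell 82, which had 0 myeloid or macrophage markers, and the next were in cell 32, which had 7, and in cell 28, which had 2. In the 121 cells with none of the myeloid or macrophage markers, Fth1 was detected in 80.2% and Ftl1 in 64.5%, against 78.6% and 63.7% of all cells. The median value of Fth1 was 116 in those 121 cells, against 49.5 in all cells, and that of Ftl1 was 9.66 against 9.26. In these cells the rho of Fth1 with Ftl1 was 0.45, and that of the storage score with oxidative phosphorylation was 0.49.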

How the data were processed

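The authors deposited 1 table of 17035 rows for 182 cells, holding a normalized signal per gene and cell on a linear scale. Per the submitters' processing notes, TopHat2 2.0, Cufflinks 2.2, Cuffdiff and the mm10 build were used. For the starting unit, annotation and normalization there is no statement in these sources. The values are not counts, so no count model was used and depth is unknown. From this table, Spearman's rho, Pearson's r and scores of log2(value + 1) were computed in Python 3.11.15 with numpy 2.4.6, scipy 1.17.1 and pandas 2.3.3, over all cells and within both sets, which were found from the values. The calling step was tested on simulated data, with background genes shuffled within sets and a reference that had no floor. Shuffling removes relations tied to depth or transcript length, so that test does not cover calls arising from them. Nor does it cover members at their floor in most cells. A partial rho took the number of genes above their floor into account.

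The 6 genes and 23 further lists were chosen with earlier results of these data known, and the length classes after these values had been seen. Named genes were the 6, the 5 most and 3 least like each of them, called list genes with up to 4 more per list, and shares of cells for pathway genes. Short non-coding RNA rows (including Gm and Rik names) were not named, and a few genes that the rule would name are not reported here. Cells are named by the number in their column. No doublet caller was run. Elements, lengths and shared stretches came from the GENCODE M21 transcripts.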

Additional observations from a re-analysis of the deposited data

How the results depend on the processing

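No paired analysis was possible because all cells form 1 group. The relations of Fth1 with Ftl1 and of the storage score with oxidative phosphorylation kept their sign and stayed at 0.2 or more under every alternative run. The share of cells with Tfrc was 28.6% above the floor. That of Slc11a2 was 3.30% at a value of at least 5 and 17.0% above the floor, and that of Ireb2 was 8.24% and 30.2%. Tfrc with Slc11a2 turned negative in set 1 (-0.15), in set 2 (-0.17), as a partial rho (-0.16) and as Pearson's r (-0.093). It was also negative with ranks within sets (-0.15) and with values below 1 tied (-0.096). In the same order, Ireb2 with Aco1 had 0.12, -0.075, 0.10, -0.046, 0.041 and -0.036. Tfrc with Ireb2 had 0.11, 0.092, 0.093, 0.056, 0.10 and 0.071. It had -0.14 with z-scores within sets and 0.18 with all members of both roles scored. The storage score with S phase was -0.17 in set 2 and -0.18 as Pearson's r, and with G2/M it was -0.29 as a partial rho.

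The genes called with Fth1 numbered 264, and 63 at a rho of 0.3, 145 by partial rho and 106 among genes in at least 50% of cells. For Ftl1 they numbered 243, and 43, 125 and 113. Tfrc had 8, and 0 at 0.3, 1 at 50% of cells and 0 with values tied. Slc11a2 had 15, and 0 at 0.3, 7 by partial rho, 3 at 50% and 5 tied. Ireb2 had 8, and 0 at 0.3, 1 at 50% and 4 tied. Aco1 had 6, and 0 both at 0.3 and at 50% of cells. A stricter size or filter admits fewer genes by construction, and the cause of the other changes was not tested. The settings with ranks within sets, with tied values and without cells holding a myeloid marker were chosen after seeing the data. With no read counts, a value at the floor cannot be told apart from a gene too low for the depth of its cell.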
